A study of Mus musculus with 16 samples.

Results

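Bulk RNA sequencing compared tdTomato-positive lung cells of 4 bleomycin-treated and 4 saline-treated *Pdgfra-tdT* mice, 14 days after instillation. These 8 mice were chosen by their labels out of 16 sequenced mice, the other 8 being *Acta2-tdT* mice with the same treatments. All 8 carried *Pdgfra-CreERT2; tdTomatoflox*, were 11 weeks old by the labels, and had received 5 intraperitoneal injections of 3 mg tamoxifen at 6 weeks of age, before saline or bleomycin. Saline mice are numbered 1 to 4 and bleomycin mice 5 to 8, and p-values measure the spread between these mice.

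*Pdgfra* encodes the receptor for platelet-derived growth factor that marks fibroblasts of the alveolar wall and of the adventitia. In this line tamoxifen switches on tdTomato in cells that express Cre from a *Pdgfra* promoter transgene, and the color is kept by these cells and their descendants even if *Pdgfra* is later switched off. Bleomycin injures the alveolar epithelium, after which macrophages enter and clear debris and fibroblasts lay down collagen. The comparison was made to learn what the labeled lineage expressed in the fibrotic phase, and the markers given below bear on how far the sorted cells held it. The cells were sorted on tdTomato alone as far as the sources used here say. Whether any reads of the transgene were counted as *Pdgfra* was not examined.

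The values are FPKM, fragments counted relative to transcript length and to all mapped fragments, so that genes of different length can be compared. Read counts are not part of them. The summed FPKM of nuclear protein-coding genes differed widely within both groups. It was 29964, 30051, 61168 and 36087 in saline mice 1 to 4 and 147467, 54402, 44154 and 29727 in bleomycin mice 5 to 8. Saline mouse 3 and bleomycin mouse 5 stood high, and bleomycin mouse 8 stood with saline mice 1, 2 and 4. Between 2043 and 7919 protein-coding genes reached 1 FPKM per mouse. In addition, 3 predicted genes of unknown function, *Gm11032*, *Gm10801* and *Gm17604*, took 5.81% to 58.0% of the nuclear sum. Their share was 56.3%, 57.1%, 14.6% and 58.0% in saline mice 1 to 4 and 5.81%, 17.9%, 24.3% and 49.1% in bleomycin mice 5 to 8. They are part of the sum used for scaling below. Across tested genes, which are not independent replicates, log2(FPKM + 1) of saline mice 1, 2 and 4 and of bleomycin mouse 8 correlated with each other at 0.902 to 0.936. Saline mouse 3 correlated with saline mice 1, 2 and 4 at 0.202 to 0.269 and with bleomycin mouse 5 at 0.826. Fold changes are therefore also given after each mouse was scaled to the same nuclear protein-coding sum (40120.4 FPKM), and are then called scaled, while statements of overlap are unscaled where nothing else is said. An approximate fragment number implied by the confidence bounds in the files was 600410 to 3349415 per mouse. In such bulk samples fewer cells of a type and less RNA per cell cannot be told apart.

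The label was checked first. In saline mice 1 to 4, *Pdgfra* had 3.02, 2.18, 3.82 and 2.14 FPKM, against 2.45, 1.36, 2.02 and 0.977 in bleomycin mice 5 to 8. *Pdgfra* was thus detected at low levels in every mouse, and the groups overlapped. Its log2 fold change, bleomycin minus saline on the log2(FPKM + 1) scale as for all fold changes below, was -0.50 (SE 0.38, limma adjusted p = 0.681). After scaling it was -0.85 (adjusted p = 0.681), with all 4 bleomycin mice below all 4 saline mice (as in 1.56% of all genes after scaling, exact two-sided permutation test over 70 labellings, p = 0.0286, the smallest it can give). *Tcf21*, a transcription factor of lung fibroblasts, was listed at 0 in 6 of the 8 mice and reached 0.868 FPKM at most. *Dcn*, a proteoglycan of adventitial fibroblasts, was at 44.1 FPKM in saline mouse 3 and 96.2 in bleomycin mouse 5 but at 0.622 to 14.6 FPKM in the other 6 mice. These 2 genes were picked after their values were seen, and other listed fibroblast markers were detected in every mouse, such as *Ly6a* at 4.87 to 956 and *Ly6c1* at 3.06 to 410.3 FPKM, both of which endothelium also expresses.

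No single gene passed the test between bleomycin and saline. The test took in 3406 protein-coding genes that reached 1 FPKM in 4 or more of the 8 mice. Of these, 0 had a limma adjusted p under 0.05, and 151 had an unadjusted p under 0.05, 133 of them higher (3.9% of tested genes) and 18 lower (0.528%) with bleomycin. After scaling the calls were again 0, with 161 higher (4.73%) and 26 lower (0.763%) at an unadjusted p under 0.05. Over the tested genes the fold changes had a median of 0.62 (log2), or 0.21 after scaling. Scaling to the nuclear sum without predicted genes, chosen after seeing the data, gave a median of -0.09 with 0 calls and a *Lyz2* fold change of 3.52. These medians and the split into higher and lower are of genes that passed the level filter. In saline mouse 3 and bleomycin mice 5, 6 and 7, 4043 to 7919 genes reached 1 FPKM, against 2043 to 2353 in the other mice. Without the filter the median over 21275 genes was 0.05, or -0.03 after scaling. The median SD within a group was 0.75 in saline and 1.12 in bleomycin mice, so most changes lay inside the spread between mice, and 517 tested genes had a fold change larger than both of their SDs. The count depended on single mice. Without bleomycin mouse 8, the test called 24 genes, 23 of them higher and 8 of them among the 10 genes described next. Without saline mouse 3, it called 0 genes unscaled and 37 after scaling, 30 of them higher. With sample quality weights in place of equal weights it called 2231 genes unscaled and 2545 after scaling. Of the 2231, 74 had groups that did not overlap. Among all 3406 tested genes 68 lay above (2%) and 23 below (0.675%) without overlap. The weights were 0.0922 for saline mouse 3, 0.0944 for bleomycin mouse 5 and 0.241 for bleomycin mouse 8, against 0.931 to 7.28 for the others. Among genes of every biotype the test called 9, of which 2 were higher and 7 lower, and none was among the 10 genes described next.

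**Figure D1:**
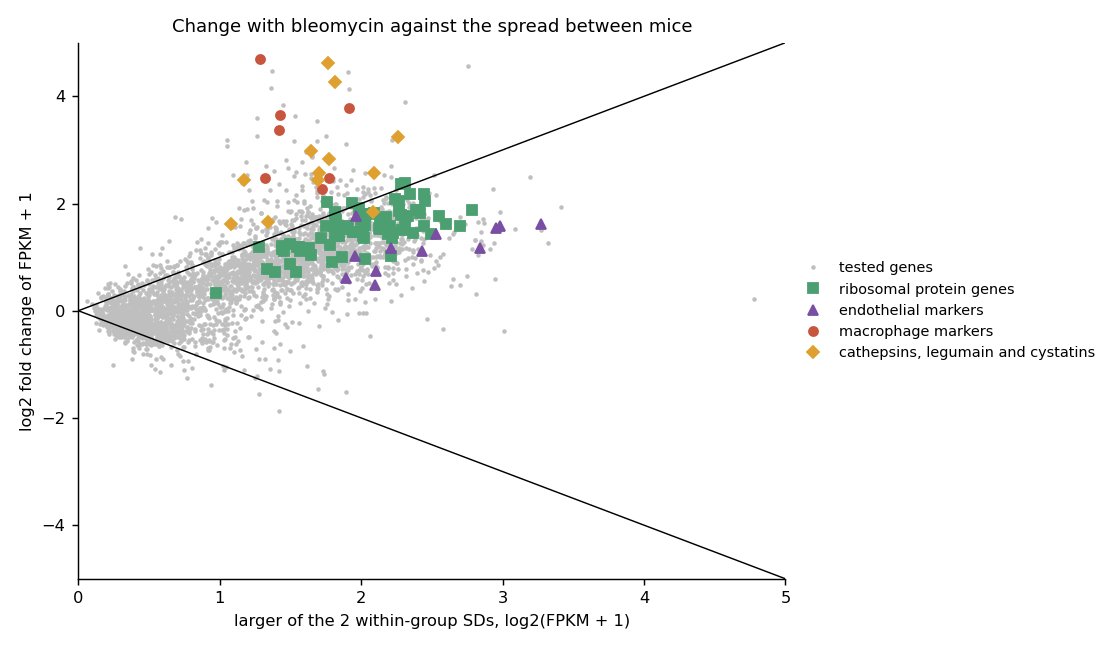
Log2 fold change of each of the 3406 tested genes (vertical axis, bleomycin minus saline, log2 of FPKM + 1) against the larger of its 2 within-group SDs (horizontal axis), with the diagonals marking a change as large as that SD. Macrophage markers (orange-red circles) lie above the upper diagonal, at changes of 2.27 to 4.69, whereas endothelial markers (violet triangles) lie below it.

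The protein-coding genes with the smallest p-values are described first, passing over predicted genes. Among genes whose groups did not overlap, which were 1.64% of 21275 protein-coding genes above 0 FPKM for bleomycin above saline, the first 10 by p were *Lyz2*, *Ccl6*, *Lgals3*, *Fth1*, *Ctss*, *Ftl1*, *Acp5*, *Fabp5*, *Cd68* and *Bcl2a1b*. The FPKM of *Lyz2* were 69.5, 31.8, 24.3 and 58.7 with saline (mice 1 to 4) and 2861, 1522, 1034 and 342 with bleomycin (mice 5 to 8). This gene on chromosome 10 (117277334 to 117282274, GRCm38) encodes lysozyme of macrophages and neutrophils. All 4 bleomycin mice lay above all 4 saline mice, with a log2 fold change of 4.69 (SE 0.69, adjusted p = 0.303) and of 4.09 after scaling (adjusted p = 0.198).

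For *Ccl6*, saline mice 1 to 4 gave 7.07, 4.89, 1.98 and 8 FPKM and bleomycin mice 5 to 8 gave 299, 112, 246 and 36.2. *Ccl6* encodes a chemokine of myeloid cells, and every bleomycin mouse exceeded every saline mouse, by a log2 fold change of 4.48 (SE 0.83, scaled 3.85, adjusted p = 0.515). *Lgals3* was at 2.44, 1.17, 0.544 and 3.22 FPKM in saline mice 1 to 4 and at 105, 61.7, 59.2 and 11 in bleomycin mice 5 to 8. *Lgals3* encodes galectin-3, a sugar-binding protein abundant in activated macrophages, and its groups were apart in the same way (log2 fold change 4.15, SE 0.80, scaled 3.52). In saline mice 1 to 4, *Ctss* had 4.8, 2.69, 3.4 and 8.2 FPKM, against 270.0, 232, 234 and 20.4 in bleomycin mice 5 to 8. *Ctss* encodes cathepsin S, a lysosomal protease of antigen-presenting cells. Bleomycin mice 5, 6 and 7 had similar levels of it, and mouse 8 lay far below them but above all saline mice (log2 fold change 4.62, SE 0.93, scaled 4.02). The FPKM of *Cd68* were 1.4, 0.536, 1.18 and 2.07 with saline (mice 1 to 4) and 39, 33.4, 38.4 and 4.33 with bleomycin (mice 5 to 8). *Cd68*, a lysosomal membrane protein used as a macrophage marker, had the same order (log2 fold change 3.38, SE 0.76, scaled 2.83).

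The ferritin chains that store iron were the most abundant of these genes beside *Lyz2*. For *Fth1*, saline mice 1 to 4 gave 44.3, 26.9, 97.3 and 47.8 FPKM and bleomycin mice 5 to 8 gave 2109.8, 768, 835 and 185. The heavy chain gene *Fth1* had a log2 fold change of 3.84 (SE 0.76, scaled 3.24), and the light chain gene *Ftl1* one of 3.60 (SE 0.74, scaled 3.003), both with all bleomycin mice above all saline mice. Both ferritin genes have many near-identical pseudogenes, so their levels are uncertain where reads were split. Of 17 redox and iron genes, 3 were without overlap, against 1.64% of all genes, these ferritin genes and *Nox4*, an NADPH oxidase that reached 1.02 FPKM at most, and the median was 1.23 (0.91 after scaling). The count was 8 without bleomycin mouse 8, against 6.66% of all genes, and 7 without saline mouse 3, against 6.58%. The log2 fold change was 3.63 (scaled 3.05) for *Acp5* (tartrate-resistant acid phosphatase), 3.08 (scaled 2.49) for *Fabp5* (a fatty acid carrier) and 1.71 (scaled 1.32) for *Bcl2a1b* (an antiapoptotic protein of leukocytes with near-identical copies). *Acp5* and *Bcl2a1b* had at most 0.732 and 0.43 FPKM with saline, so they passed the level filter only through the 4 bleomycin mice. The adjusted p-values of the 10 genes were 0.303 to 0.532 unscaled and 0.198 to 0.3 after scaling. As the genes were picked for groups that did not overlap, an exact test of them would only restate that choice. In the plot of these genes by mouse, bleomycin mouse 8 is the lowest of its group for each.

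**Figure D2:**
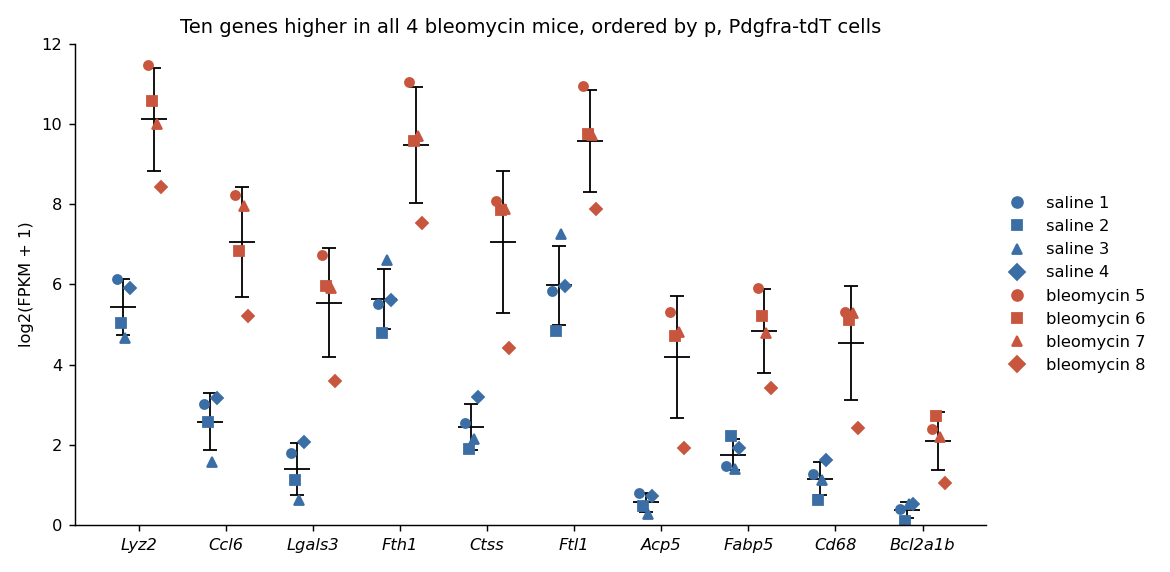
Log2(FPKM + 1) of the 10 genes in each mouse, saline in blue and bleomycin in orange-red, with a symbol for each mouse and black bars for the mean and SD of 4 mice. The bleomycin values lie above all saline values of the same gene, with the lowest bleomycin mouse at 342 FPKM against at most 69.5 in *Lyz2* and at 1.08 against at most 0.43 in *Bcl2a1b*.

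Promoters of genes that differed together are shown with the motifs found in them. The windows are the 250 bases before the RefSeq start (GRCm38.p6, 5′ to 3′ on the gene's strand, which is the minus strand for all 4), with motif matches in capitals. *Lyz2* (chr10:117282273-117282522) and *Ccl6* (chr11:83593088-83593337) hold GGAAGT, the core bound by ETS factors such as PU.1, on the opposite strand, where it reads ACTTCC. *Cd68* (chr11:69666171-69666420) holds the AP-1 motif TGACTCA on the opposite strand, read as TGAGTCA. *Ctsd* (chr7:142387828-142388077), the cathepsin D gene described below, holds CACGTG, an E-box that is part of the element of lysosomal genes.
Lyz2: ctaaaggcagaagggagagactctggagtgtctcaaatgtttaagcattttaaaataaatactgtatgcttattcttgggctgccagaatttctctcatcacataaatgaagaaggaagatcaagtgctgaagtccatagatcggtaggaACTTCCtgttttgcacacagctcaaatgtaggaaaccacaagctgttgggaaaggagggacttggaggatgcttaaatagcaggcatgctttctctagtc
Ccl6: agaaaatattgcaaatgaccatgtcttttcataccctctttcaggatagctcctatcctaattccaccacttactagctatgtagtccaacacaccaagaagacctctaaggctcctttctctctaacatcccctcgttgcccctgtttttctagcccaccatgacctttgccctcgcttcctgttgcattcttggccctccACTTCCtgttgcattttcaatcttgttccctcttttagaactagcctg
Cd68: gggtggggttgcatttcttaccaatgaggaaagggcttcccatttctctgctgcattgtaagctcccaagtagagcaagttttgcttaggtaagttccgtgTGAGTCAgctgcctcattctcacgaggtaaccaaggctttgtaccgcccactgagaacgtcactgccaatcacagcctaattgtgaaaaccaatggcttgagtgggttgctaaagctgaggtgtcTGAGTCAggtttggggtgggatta
Ctsd: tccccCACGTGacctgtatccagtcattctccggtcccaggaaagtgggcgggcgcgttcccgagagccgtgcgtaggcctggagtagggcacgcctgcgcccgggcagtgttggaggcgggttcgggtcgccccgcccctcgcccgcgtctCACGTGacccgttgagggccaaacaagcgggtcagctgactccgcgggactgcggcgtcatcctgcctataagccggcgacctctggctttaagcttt
The *Lyz2* match begins 100 bases and the *Ccl6* match 48 bases before the start. The *Cd68* matches begin 149 and 24 bases before it, and those of *Ctsd* 245 and 98 bases before it. The naming rule, by p and by list, chose 25 tested genes whose bleomycin mice all lay above all saline mice, not all of them described here, and 21 of these had a promoter in the table. GGAAGT on either strand was found in 10 of them (47.6%), against 22.2% of 27025 genes, and TGACTCA and CACGTG in 1 each (4.76%), against 5.16% and 6.86% of genes. The longer form GAGGAAGT, which contains GGAAGT, was found in 2 of the 21 (2.79% of genes), and GTCACGTG, which contains CACGTG, in *Ctsd* (2.11% of genes). The genes were chosen by p and from such lists as macrophage, leukocyte and cathepsin genes, and the motifs with the genes known. The shares therefore describe the chosen genes and do not test an effect of bleomycin. A match describes the sequence and does not show that a factor binds.

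Of 16 macrophage markers, all above 0 FPKM, 7 had all bleomycin mice above all saline mice against 1.64% of all genes, and 0 had them below. The median log2 fold change of the 16 was 1.66, against 0.05 over all genes above 0, and 1.19 against -0.03 after scaling. Without saline mouse 3 and bleomycin mouse 5 the count was 8 of 16, against 8.68% of all genes, without bleomycin mouse 8 it was 14, against 6.66%, and without saline mouse 3 it was 7, against 6.58%. After scaling it was 8, against 1.18%. The summed FPKM of the list was 86.7, 44.6, 44.8 and 93.4 in saline mice 1 to 4 and 3274, 1865, 1549 and 388 in bleomycin mice 5 to 8, or 0.0732% to 0.289% and 1.30% to 3.51% of the nuclear sum. Saline mouse 3, with a high nuclear sum, was among the lowest in it. *C1qb* was at 3.42, 2.26, 7.29 and 13.5 FPKM in saline mice 1 to 4 and at 106, 156, 136 and 17.7 in bleomycin mice 5 to 8. *C1qb* encodes a chain of the complement starter C1q made by macrophages, and its groups did not overlap (log2 fold change 3.65, SE 0.89, scaled 3.08). *C1qa*, another chain, overlapped through bleomycin mouse 8, at 2.69 FPKM against up to 5.92 in saline. *Chil3*, a chitinase-like protein of alveolar and alternatively activated macrophages, was at 1.69 to 4.82 FPKM in saline and 12.5 to 232 FPKM in bleomycin mice (log2 fold change 3.79, SE 0.98, scaled 3.16). *Csf1r*, the receptor that macrophages need to survive, reached 3.60 FPKM at most, and *Siglecf*, a surface marker of alveolar macrophages, 0.587. The summed macrophage markers were thus higher in every bleomycin mouse than in every saline mouse, but most of the sum was *Lyz2*. It gave 2861 of the 3274 FPKM in bleomycin mouse 5 and 342 of the 388 in mouse 8. The median FPKM of the 16 markers overlapped, at 0.354 to 0.785 in saline mice and 8, 2.84, 8.5 and 0.517 in bleomycin mice 5 to 8. The part of the macrophage markers in the results for other genes was not tested. Of 15 complement genes 3 were without overlap, against 1.64% of all genes (median 0.42, scaled 0.14), and 8 without bleomycin mouse 8, against 6.66%.

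**Figure D3:**
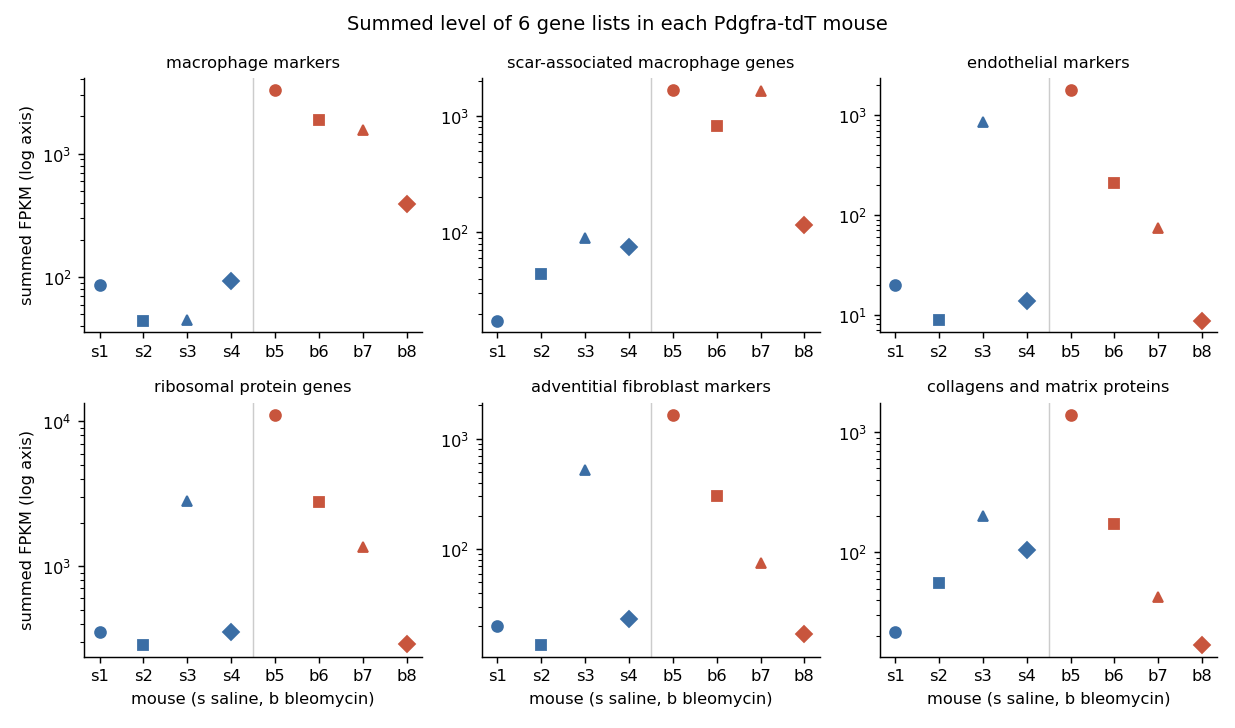
Summed FPKM of 6 gene lists (log axis) in each mouse, s for saline and b for bleomycin. The sum of macrophage markers, most of it *Lyz2*, was higher in every bleomycin mouse than in every saline mouse. Endothelial, ribosomal, adventitial and matrix genes were highest in bleomycin mouse 5 and also high in saline mouse 3.

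Genes reported for macrophages of scarred tissue were examined next. Of 10 such genes, 5 had all bleomycin mice above all saline mice, against 1.64% of all genes, and 6 after scaling, against 1.18%. Without bleomycin mouse 8 the count was 9, against 6.66%. The median log2 fold change of the 10 was 2.94 (2.37 after scaling), against 0.05 (-0.03) over all genes above 0. In saline mice 1 to 4, *Spp1* had 4.6, 30.6, 25.5 and 53.7 FPKM, against 1061, 541, 1396 and 73.5 in bleomycin mice 5 to 8. *Spp1*, the gene of osteopontin, a secreted matrix-binding protein, was apart between the groups, though bleomycin mouse 8 lay close to saline mouse 4 (log2 fold change 4.46, SE 1.07, scaled 3.87, adjusted p = 0.532). The FPKM of *Trem2* were 0.784, 0.442, 0.356 and 1.51 with saline (mice 1 to 4) and 41.7, 22.3, 14.9 and 2.57 with bleomycin (mice 5 to 8). *Trem2*, a lipid-sensing receptor of macrophages, was likewise apart (log2 fold change 3.16, SE 0.77, scaled 2.59). For *Mmp12*, saline mice 1 to 4 gave 0.582, 1.11, 0.349 and 1.11 FPKM and bleomycin mice 5 to 8 gave 61, 29.4, 18.4 and 0.779. *Mmp12*, macrophage elastase, was high in bleomycin mice 5, 6 and 7 but not in mouse 8, which lay inside the saline range (log2 fold change 3.19, SE 1.01, scaled 2.56, exact two-sided permutation p = 0.0857).

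Genes shared by leukocytes pointed the same way. Of 15 entries (14 genes, *Itgam* under a pair of identifiers), 8 had all bleomycin mice above all saline mice, against 1.64% of all genes (12 without bleomycin mouse 8, against 6.66%), with a median log2 fold change of 1.87 (1.29 after scaling). *Tyrobp* was at 23.2, 8.75, 4.46 and 11.8 FPKM in saline mice 1 to 4 and at 204, 182, 119 and 29.6 in bleomycin mice 5 to 8. *Tyrobp* encodes the signaling adaptor DAP12, and it was already above 4 FPKM in every saline mouse (log2 fold change 3.26, SE 0.83, scaled 2.64). *Fcer1g*, a signaling chain of Fc receptors, had a log2 fold change of 3.19 (scaled 2.59), and *Cd52*, a small surface glycoprotein of leukocytes, one of 2.88 (scaled 2.28), each without overlap of the groups. *Ptprc*, the gene of CD45, overlapped, at 0.357 to 0.993 FPKM in saline and 0.837 to 2.54 in bleomycin mice.

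Of 18 cathepsins, legumain, cystatins and prosaposin, 4 were without overlap, against 1.64% of all genes. The count was 12 without bleomycin mouse 8, against 6.66%, and 8 without saline mouse 3, against 6.58%. Of the 12 tested members, 10 had an unadjusted p under 0.05 with higher values in bleomycin mice, against 3.9% of tested genes. The median of the 18 was 2.44 (1.92 after scaling). In saline mice 1 to 4, *Ctsd* had 2.95, 3.36, 24.5 and 7.89 FPKM, against 516, 197, 203 and 25.1 in bleomycin mice 5 to 8. *Ctsd* encodes cathepsin D, an aspartic protease whose promoter is printed above. It did not overlap (log2 fold change 4.27, SE 1.05, scaled 3.71), although bleomycin mouse 8 and saline mouse 3 were nearly equal. The FPKM of *Psap* were 1.92, 1.53, 21.8 and 4.84 with saline (mice 1 to 4) and 199, 92.3, 75.2 and 4.5 with bleomycin (mice 5 to 8). *Psap*, the precursor of the saposins that help degrade sphingolipids, overlapped through bleomycin mouse 8 (log2 fold change 3.24, SE 1.23, scaled 2.70), as did *Ctsz* before scaling (2.98, SE 0.95, scaled 2.43).

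Lipid handling genes followed in part. Of 16 cholesterol handling genes, 2 had all bleomycin mice above all saline mice, against 1.64% of all genes (median log2 fold change 0.58, scaled 0.34), and the count was 8 without bleomycin mouse 8 (against 6.66%) and 5 without saline mouse 3 (against 6.58%). For *Apoe*, saline mice 1 to 4 gave 21.8, 10.3, 46.4 and 56.5 FPKM and bleomycin mice 5 to 8 gave 466, 755, 608 and 58.4. *Apoe*, the lipid carrier made in quantity by macrophages, was apart only narrowly, at 58.4 FPKM in bleomycin mouse 8 against 56.5 in saline mouse 4 (log2 fold change 3.54, SE 0.94, scaled 2.95). *Lipa*, the lysosomal acid lipase, had a log2 fold change of 2.07 (SE 0.71, scaled 1.56), with bleomycin mouse 8 at 2.95 and saline mouse 3 at 2.74 FPKM. *Plin2*, which coats lipid droplets, and *Lpl*, lipoprotein lipase, are listed as lipofibroblast markers but are also made by lipid-laden macrophages. *Lpl* was at 0.856 to 4.27 FPKM in saline and 3.07 to 61.7 in bleomycin mice (log2 fold change 2.86, SE 0.88, scaled 2.34), and *Plin2* at 0.56 to 2.97 and 1.63 to 22.5 FPKM (2.37, SE 0.75, scaled 1.89). Both overlapped before scaling and did not overlap after it. Of the 14 alveolar fibroblast and lipofibroblast markers these were the ones with an unadjusted p under 0.05, and the median of the 14 was -0.02 (-0.09 after scaling).

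Among 28 chemokine ligands and receptors above 0 FPKM, 2 were without overlap, against 1.64% of all genes, *Ccl6* and its neighbor *Ccl9* (log2 fold change 2.78, SE 0.66, scaled 2.22), a further chemokine of myeloid cells, and the median of the 28 was 0.13 (-0.01 after scaling). Without bleomycin mouse 8 the count was 5, against 6.66%. *Igf1*, a growth factor for fibroblasts that macrophages also make, was at 1.09 to 1.64 FPKM in saline and 1.76 to 5.54 in bleomycin mice (log2 fold change 1.05, SE 0.43, scaled 0.58), and the groups overlapped after scaling. *Cd44*, the receptor for hyaluronan, was at 0.676 to 1.03 and 1.07 to 5.77 FPKM (0.92, SE 0.40, scaled 0.49). Markers of other leukocytes had medians near 0. Of 13 neutrophil genes 0 were without overlap, with a median log2 fold change of -0.02 (-0.19 after scaling), and after scaling 2, *Mmp9* and *Retnlg*, had all bleomycin mice below all saline mice, against 1.56% of all genes. *Retnlg*, a neutrophil gene, was at 1.39 to 4.99 FPKM in saline and 0 to 1.45 in bleomycin mice, which before scaling overlapped only between bleomycin mouse 5 and saline mouse 4 (log2 fold change -1.15, SE 0.40, scaled -1.42, adjusted p = 0.681). The 9 B cell markers had a median of -0.04 (-0.06 after scaling) and no tested member. Of 18 T and NK cell markers 2 were without overlap, against 1.64% of all genes (median -0.03, scaled -0.07), *Cd8b1* at 0.53 to 1.25 FPKM in bleomycin mice against at most 0.370 in saline mice, and *Cd2*. *Cd2* was at 0.839, 1.06, 0.0519 and 0.633 FPKM in saline mice 1 to 4 and at 7.97, 5.74, 3.54 and 2.02 in bleomycin mice 5 to 8. *Cd2*, an adhesion receptor of T cells, had a log2 fold change of 1.75 (SE 0.45, scaled 1.21, adjusted p = 0.532), while *Cd3e* of the T cell receptor complex reached 0.575 FPKM at most.

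**Figure D4:**
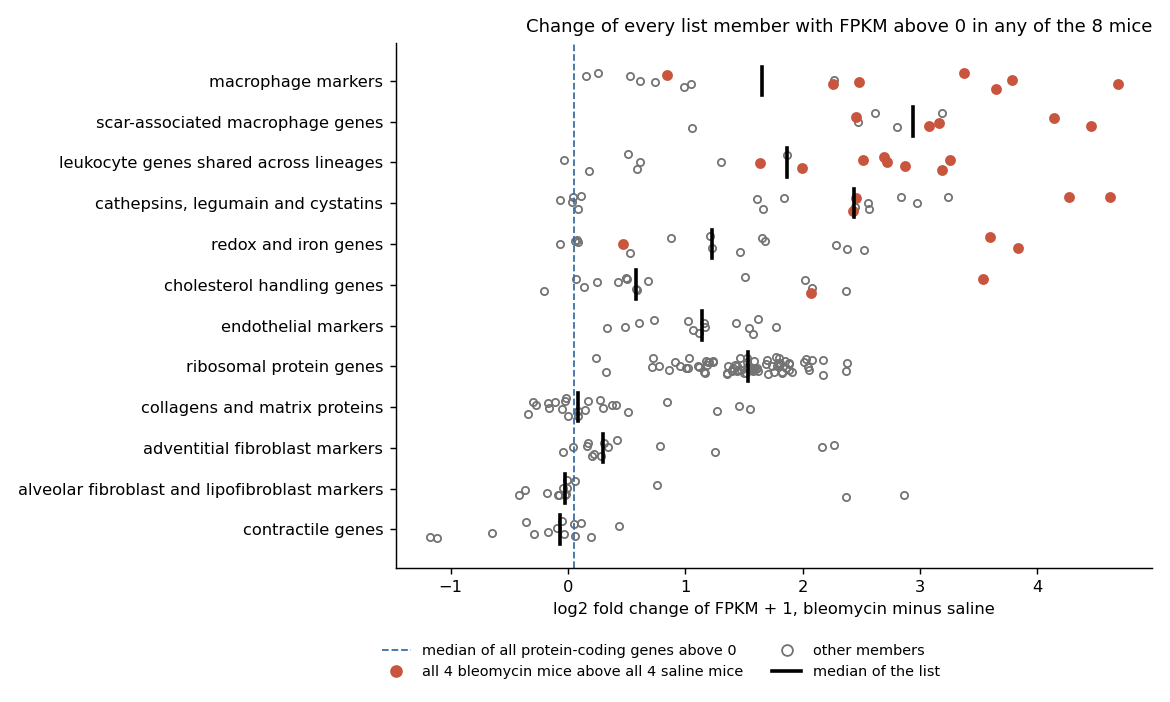
Log2 fold change (bleomycin minus saline) of every member above 0 FPKM of 12 gene lists, filled where all 4 bleomycin mice lay above all 4 saline mice, with a black bar for each list's median and a dashed line for the median of all protein-coding genes above 0. Filled points lie in the macrophage, leukocyte, cathepsin, iron and cholesterol lists, and the 77 ribosomal protein genes lie to the right of the line with 0 filled.

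Endothelial and housekeeping genes varied between mice of the same group. In saline mice 1 to 4, *Cldn5* had 7.58, 2.65, 246 and 5.01 FPKM, against 741, 77.7, 19.5 and 2.43 in bleomycin mice 5 to 8. *Cldn5*, claudin-5 of endothelial tight junctions, was high in saline mouse 3 and bleomycin mouse 5 and low in bleomycin mouse 8, and its log2 fold change of 1.62 had an SE of 1.84 (scaled 1.03, unscaled exact two-sided permutation p = 0.457). The summed FPKM of 14 endothelial markers was 19.8, 8.8, 855 and 13.9 in saline mice 1 to 4 and 1789, 211, 73.2 and 8.7 in bleomycin mice 5 to 8. *Ly6a* (Sca-1), of both endothelium and adventitial fibroblasts, was also highest in saline mouse 3 (292 FPKM) and bleomycin mouse 5 (956 FPKM). Of 77 ribosomal protein genes 0 were without overlap, and 1, *Rpl12*, after scaling, against 1.18% of all genes. Without saline mouse 3 the unscaled count was 15, against 6.58% of all genes. Their median log2 fold change was 1.54 (0.99 after scaling). The 95 nuclear subunits of oxidative phosphorylation had a median of 1.47 (0.96 after scaling), also with 0 without overlap, but with 26 without saline mouse 3 (against 6.58%) and 11 without bleomycin mouse 8 (against 6.66%). In the lists of lung epithelial (20 genes, median 0.15, scaled 0.03), pericyte (10, -0.07, scaled -0.16), mesothelial (5, 0.09, scaled 0.05), Schwann cell (4, -0.08, scaled -0.13) and erythroid genes (11, 0.30, scaled 0.28), 0 were without overlap in either direction. The same count of 0 held for p53 targets (17, median 0.25), chaperones of the endoplasmic reticulum (15, 0.88), immediate early genes (20, 0.69) and cell cycle genes (23, 0.41), whose medians were 0.02, 0.36, 0.23 and 0.09 after scaling. These counts depended on single mice too, since 6 cell cycle genes lay above without bleomycin mouse 8 (against 6.66%) and 3 p53 targets without saline mouse 3 (against 6.58%).

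In the list of 23 collagens and matrix proteins, no gene passed the test or had an unadjusted p under 0.05 before scaling. The FPKM of *Col1a1* were 0.353, 1.56, 2.24 and 3.65 with saline (mice 1 to 4) and 13.3, 0.875, 0.503 and 0.296 with bleomycin (mice 5 to 8). *Col1a1*, a chain of type I collagen, was highest in bleomycin mouse 5, while the other 3 bleomycin mice lay under 1 FPKM, within the saline range or below it. Its log2 fold change was 0.00 (SE 0.79, scaled -0.47), that of *Col1a2*, the partner chain, -0.05 (SE 0.92, scaled -0.49) and that of *Col3a1*, of type III collagen, 0.38 (SE 0.83, scaled -0.06). Of the 23 genes 0 were without overlap in either direction (1, *Col12a1*, was lower in all bleomycin mice after scaling, against 1.56% of all genes), and their median was 0.09 (-0.14 after scaling). *Col4a1* and *Col4a2*, the chains of basement membrane collagen, were at 0.254 to 6.87 and 0.277 to 10.02 FPKM in saline mice and at 0.314 to 36.2 and 0.347 to 68.8 in bleomycin mice, with log2 fold changes of 1.46 (SE 1.05, scaled 1.002) and 1.55 (SE 1.23, scaled 1.07). For *Sparc*, saline mice 1 to 4 gave 9.17, 17.2, 128 and 35.6 FPKM and bleomycin mice 5 to 8 gave 969.9, 121, 28.5 and 7.39. *Sparc*, a collagen-binding glycoprotein, was the most abundant of them in bleomycin mouse 5, and again the groups overlapped (log2 fold change 1.27, SE 1.47, scaled 0.67). Adventitial fibroblast markers (14, median 0.30, scaled -0.02) had 0 without overlap.

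*Acta2* was at 2.59, 6.62, 8.92 and 11 FPKM in saline mice 1 to 4 and at 19.4, 0.831, 0.836 and 0.834 in bleomycin mice 5 to 8. *Acta2*, the gene of α-smooth muscle actin, was thus above 2 FPKM in every saline mouse and below 1 in 3 of 4 bleomycin mice, and the groups overlapped through bleomycin mouse 5 (log2 fold change -1.17, SE 0.88, scaled -1.68, adjusted p = 0.681). *Tpm2*, a tropomyosin of contractile fibers, had the same order, at 2.04 to 3.93 FPKM in saline mice and 7.33, 0.072, 0.288 and 0.16 in bleomycin mice 5 to 8 (-1.12, SE 0.67, scaled -1.55), and all bleomycin mice lay below all saline mice after scaling. The 14 contractile genes had a median of -0.07 (-0.36 after scaling). *Des*, desmin, was below the level needed for the test, at 2.32 FPKM at most. *Timp1*, an inhibitor of matrix metalloproteinases, was at 1.12 to 5.47 FPKM in saline and 0.582 to 21.8 in bleomycin mice (0.15, SE 0.86, scaled -0.41). Of 6 PDGF ligands and receptors 0 were without overlap before scaling (median 0.05, scaled -0.10), and of 19 TGF-β ligands, receptors and targets 0 lay above and 1 below, against 1.05% of all genes (median 0.10, scaled -0.15). *Tgfbi*, a matrix protein induced by TGF-β, overlapped through bleomycin mouse 8 (1.82, SE 0.63, scaled 1.31). *Tgfbr1*, a TGF-β receptor, lay below the saline mice in all 4 bleomycin mice, by a small margin (9.27 against 9.33 FPKM), with a log2 fold change of -0.47 (SE 0.52, scaled -0.95), and overlapped after scaling.

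Protein-coding genes lower with bleomycin are described next. All 4 bleomycin mice lay below all 4 saline mice in 1.05% of protein-coding genes above 0. By p the first 10 were *Srsx*, *Traf1*, *Ddx55*, *Zfp799*, *Rbm41*, *Srsy*, *Adi1*, *Pik3ca*, *Zfp865* and *Hivep2*, with log2 fold changes of -1.26 to -0.43. In saline mice 1 to 4, *Traf1* had 4.18, 3.7, 4.37 and 3.66 FPKM, against 0.0699, 0.698, 2.29 and 2.08 in bleomycin mice 5 to 8. *Traf1*, a signaling adaptor of tumor necrosis factor receptors, differed most of these (-1.26, SE 0.46, scaled -1.35, adjusted p = 0.681). *Srsx* and *Srsy* belong to multicopy families of the sex chromosomes, so their levels are uncertain. After scaling, 4 of the 10, *Srsx*, *Traf1*, *Ddx55* and *Adi1*, were still without overlap. The summed olfactory and vomeronasal receptors, which the lung is not known for, took 4.67%, 5.34%, 1.86% and 4.75% of the nuclear sum in saline mice 1 to 4 and 0.688%, 2.2%, 2.59% and 4.70% in bleomycin mice 5 to 8. Of these 1379 receptors, 28 lay below with bleomycin, against 1.05% of all genes, and 15 above, against 1.64%. After scaling 31 lay below, against 1.56% of all genes, and 5 above, against 1.18%. The part of the receptors in the results for the lower genes was not tested.

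The effect of bleomycin was then compared with that in *Acta2-tdT* cells, by the interaction of line and treatment over all 16 mice. For this the mice were scaled to the median nuclear sum of all 16, so scaled fold changes in *Pdgfra-tdT* cells differ somewhat from those above. *Acta2-tdT* mice had received tamoxifen in food (400 mg/kg) from day 5 after instillation, so line and labeling scheme cannot be told apart. The libraries differed too. Bleomycin-treated *Acta2-tdT* mice had nuclear sums of 241916 to 466183 FPKM, with 10027 to 10737 protein-coding genes at 1 FPKM. Bleomycin-treated *Pdgfra-tdT* mice had 29727 to 147467 FPKM and 2228 to 7919 genes. The part of this in the differences between the lines was not tested. The interaction passed for 361 of 10375 genes (3.48%), and for 64.6% without scaling. *Col1a1* was at 2.06, 1.76, 1.86 and 2.44 FPKM in saline-treated and at 499, 275, 906 and 1002 in bleomycin-treated *Acta2-tdT* mice before scaling, a scaled log2 fold change of 4.72. In *Pdgfra-tdT* cells the scaled log2 fold change of *Col1a1* was -0.53, and the difference between the lines was -5.25 (SE 0.67, limma adjusted p = 0.00015). Several other named genes differed in the same direction. The difference was -4.71 for *Col1a2* (adjusted p = 0.00102), -3.51 for *Col3a1* (adjusted p = 0.00567), -3.56 for *Fn1*, the fibronectin gene (adjusted p = 3.1e-05), -5.47 for *Timp1* (adjusted p = 0.000247) and -2.62 for *Des* (adjusted p = 0.00542). Of the other matrix genes named above, *Sparc* (-2.15, adjusted p = 0.315), *Col4a2* (-0.88, adjusted p = 0.694) and *Col4a1* (-0.44, adjusted p = 0.827) did not pass. Without scaling they did, at -4.53 (limma adjusted p = 0.0165), -3.29 (adjusted p = 0.0392) and -2.80 (adjusted p = 0.0395). *Ccl8*, a monocyte chemokine, differed by -3.27 (adjusted p = 0.019). These 7 differences kept their direction and their call without scaling, with the replicate number as a block, with sample quality weights, with a pseudocount of 0.1 and with a mean FPKM of at least 5 where the gene was tested, and lost it without 1 mouse for *Ccl8* alone, in 2 of 16 cases.

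Others differed the opposite way. *Cd2* was at 0.795, 0.845, 2.14 and 1.01 FPKM in saline-treated and at 0, 0.0509, 1.23 and 2.64 in bleomycin-treated *Acta2-tdT* mice before scaling, a scaled log2 fold change of -1.05. The scaled log2 fold change of *Cd2* in *Pdgfra-tdT* cells was 1.34, a difference of 2.40 (SE 0.41, adjusted p = 0.00219) that held in each alternative listed. *Fth1* (difference 3.20, adjusted p = 0.00568) and *Ccl6* (3.57, adjusted p = 0.0226) had larger fold changes in *Pdgfra-tdT* cells after scaling and did not pass without scaling, where the adjusted p was 0.446 and 0.302. *Lyz2* differed by 2.50 (adjusted p = 0.0914) and did not pass, with scaled log2 fold changes of 1.60 in *Acta2-tdT* and 4.09 in *Pdgfra-tdT* cells, and its unscaled difference was 0.12 (adjusted p = 0.912). *Spp1* had the opposite sign, with scaled log2 fold changes of 5.90 and 3.89, a difference of -2.01 (adjusted p = 0.308) that was -4.40 without scaling (adjusted p = 0.00483). *Pdgfra* itself had a scaled log2 fold change of 0.49 in *Acta2-tdT* and of -0.93 in *Pdgfra-tdT* cells (difference -1.41, adjusted p = 0.0285), and this call was lost with the replicate block (adjusted p = 0.083) and when any 1 of 9 of the 16 mice was left out. In FPKM it was at 0.273 to 0.562 in saline-treated and at 8.01, 2.49, 9.09 and 11.9 in bleomycin-treated *Acta2-tdT* mice, so that with bleomycin it was higher there than in *Pdgfra-tdT* mice. After scaling the bleomycin mice of the lines overlapped, at 0.62 to 1.22 in *Acta2-tdT* and 0.90 to 1.76 in *Pdgfra-tdT* on the log2(FPKM + 1) scale.

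**Figure D5:**
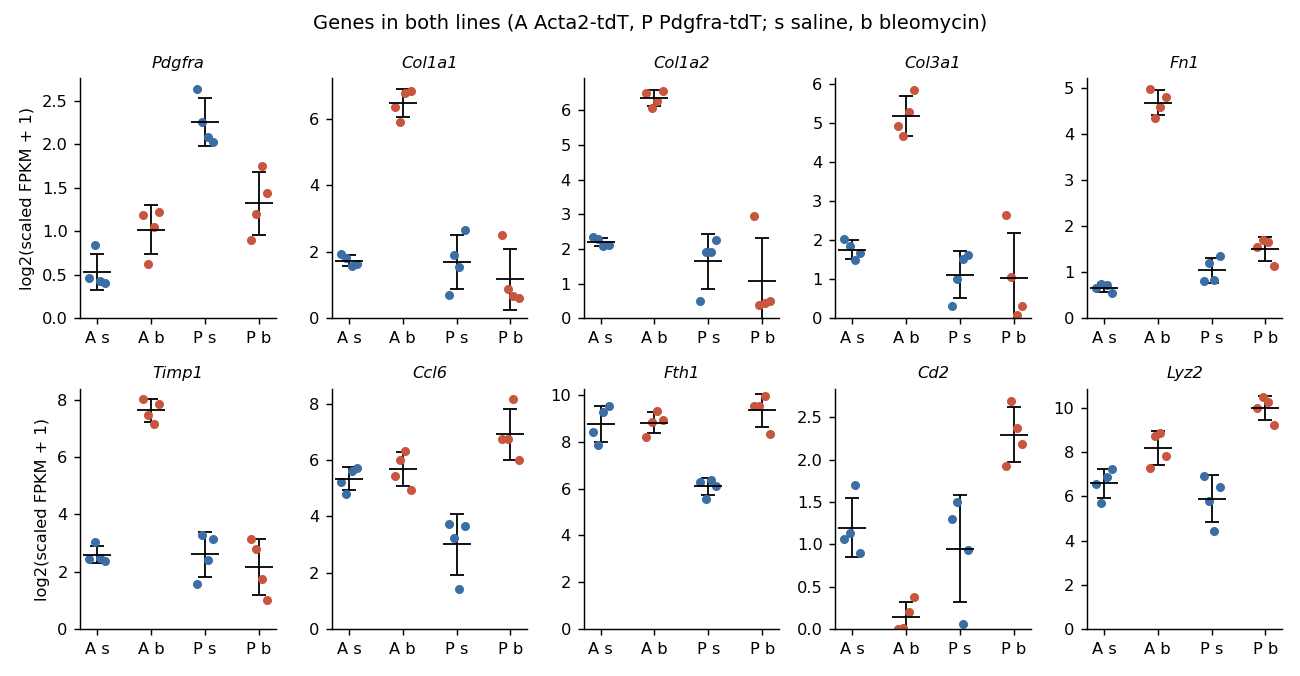
Log2(scaled FPKM + 1) of 10 genes in *Acta2-tdT* (A) and *Pdgfra-tdT* (P) mice with saline (s, blue) and bleomycin (b, orange-red), each point a mouse, with bars for the mean and SD of 4 mice. *Col1a1*, *Col1a2*, *Col3a1*, *Fn1* and *Timp1* are highest in the bleomycin-treated *Acta2-tdT* mice, and *Lyz2*, *Ccl6* and *Cd2* are highest in the bleomycin-treated *Pdgfra-tdT* mice.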

How the data were processed

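Left lung lobes of 16 mice were dissociated, tdTomato-positive cells were sorted into lysis buffer, and poly(A) RNA was amplified and sequenced (SmartSeq2). The FPKM values were made and deposited by the authors, with reads aligned to mm10 by TopHat2 2.1.1 and quantified by Cufflinks 2.1.1 per the labels. FPKM hold no read counts, so depth was only approximated, from the deposited confidence bounds with Poisson counting assumed.

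Of 49534 rows, those of the same Ensembl gene were summed, and protein-coding genes were kept unless their Cufflinks status was not OK in any mouse. Log2(FPKM + 1) of genes that reached 1 FPKM in 4 or more mice was fitted in limma 3.58.1 (R 4.3.3) with a mean-variance trend, and p-values were Benjamini-Hochberg adjusted. The pseudocount of 1 understates fold changes of low genes. Scaling used the nuclear protein-coding sum. The scripts were tested on simulated data. Alternatives are given in the closing section. Members and gene lists were chosen with earlier results of these data known. Genes were named by lineage, by list (up to 4 tested members with the largest change) and by p among those without overlap (10 per direction), passing over predicted genes and olfactory receptors. *Dcn*, *Nox4*, *Cd8b1* and the untested markers given by level are list members picked after their values were seen, and the promoter motifs were chosen with the genes known.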

Additional observations from a re-analysis of the deposited data

Results flagged for a closer look

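Single mice stood far from the other 3 of their group in 17 of 128 groups of 4 values checked, 7 of saline and 10 of bleomycin mice, where chance flags about 1 in 20. The measure is the gap to the nearest mouse as a share of the group's range, set against Dixon's critical value for 4 samples. Bleomycin mouse 5 was the highest of its group at 0.999 for *Acta2*, 0.846 for *Col1a1*, 0.978 for *Col1a2*, 0.883 for *Des* and 0.911 for *Tpm2*. Bleomycin mouse 8 was the lowest at 0.940 for *Ctss* and 0.925 for *Cd68*. Further bleomycin lows were 0.834 for *Ccl9*, 0.835 for *Srsx* and 0.936 for *Zfp865*.

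Saline mouse 3 was the highest of its group at 0.893 for *Ly6a*, 0.832 for the summed endothelial markers, 0.906 for the summed ribosomal protein genes, 0.857 for the summed adventitial markers and 0.878 for the number of genes at 1 FPKM or more. The lowest saline mouse stood apart at 0.941 for *Timp1* (mouse 1) and 0.941 for *Chil3* (mouse 3).

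The effect of bleomycin differed between the lines by the interaction test for 11 of the named genes. In scaled log2 fold change, *Pdgfra-tdT* minus *Acta2-tdT*, the difference was -1.41 for *Pdgfra*, -5.25 for *Col1a1*, -4.71 for *Col1a2*, -3.51 for *Col3a1*, -2.62 for *Des*, -3.56 for *Fn1*, -5.47 for *Timp1* and -3.27 for *Ccl8*. It was 3.57 for *Ccl6*, 3.20 for *Fth1* and 2.40 for *Cd2*.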

How the results depend on the processing

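The number of genes called between bleomycin and saline, 0 with and without scaling, changed with several settings, and the causes were not tested. Unscaled, limma called 1 gene with a mean FPKM of at least 5 (*Lyz2*, adjusted p = 0.0414), 9 among genes of every biotype (2 higher, 7 lower), 2231 with sample quality weights and 18 with all 16 mice in 1 fit. Scaled, it called 11, 10, 2545 and 61 under the same settings, and 7 without the mean-variance trend. Leaving out 1 mouse gave 0 to 24 calls unscaled, the 24 without bleomycin mouse 8, and 0 to 37 scaled, with 37 without saline mouse 3 and 25 without bleomycin mouse 8. Without both saline mouse 3 and bleomycin mouse 5, chosen after seeing the data, the counts were 0 and 2. The fold change of *Lyz2* stayed between 3.52 and 5.26 under all settings run.

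Fold changes that turned direction were those of genes with groups that overlapped. Unscaled *Col1a1* (0.00) was -0.27 with a pseudocount of 0.1, -0.63 with quality weights, -0.99 after quantile normalization and -0.59 after median centring. In the last 3 of these settings unscaled *Col3a1* was -0.36, -0.33 and -0.21 and unscaled *Timp1* -0.38, -0.95 and -0.44. Unscaled *Ccl8* was -0.28 and -0.21 after quantile normalization and centring, and scaled *Ccl8* was 0.62 with quality weights. Leaving out mice gave -0.33 to 0.35 for *Col1a1*, -0.42 to 0.30 for *Col1a2* and -0.55 to 0.73 for *Timp1* unscaled (-0.43 without saline mouse 3 and bleomycin mouse 5). Scaled, it gave -0.29 to 0.21 for *Col3a1*, -0.12 to 1.42 for *Sparc* and -0.15 to 0.17 for *Ccl8*.

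The 361 genes with a difference between the lines became 6704 without scaling, 1657 with quality weights and 229 with a mean FPKM of at least 5. Leaving out 1 mouse gave 129 to 852 calls, with 129, 131, 204 and 164 without *Acta2-tdT* bleomycin mice 8, 7, 6 and 5, and 852 without *Pdgfra-tdT* bleomycin mouse 5. With the replicate number as a block the count was 227, but same-numbered mice of the lines shared only a number (correlations of deviations -0.29 to 0.33). No paired analysis was possible because saline mice 1 to 4 and bleomycin mice 5 to 8 of *Pdgfra-tdT* share no number. Read counts were not used here, so whether a gene listed at 0 was below detection cannot be said.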

Other observations

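Some further genes without overlap were chosen after their values were seen. *Lrg1*, a secreted glycoprotein, was at 0.472 to 1.29 FPKM in saline and 2.58 to 322 in bleomycin mice, with a log2 fold change of 4.56 (SE 1.24, limma adjusted p = 0.604). *Wfdc17*, a whey acidic protein family member of myeloid cells, was at 2.52 to 8.05 and 12.9 to 230.5 FPKM (4.13, SE 0.99). *Pld3*, a lysosomal nuclease, was at 0.766 to 1.82 and 2.93 to 65.1 FPKM (3.16, SE 0.83), and *Ctsh*, cathepsin H, at 0.463 to 1.15 and 1.93 to 16.1 FPKM (2.43, SE 0.62).

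Genes of class II antigen presentation (10, median log2 fold change 1.19, 0 without overlap) were mostly low in saline mice 1, 2 and 4 and in bleomycin mouse 8. *H2-Ab1* was at 5.68, 2.19, 62.7 and 8.71 FPKM in saline mice 1 to 4 and at 148, 99.9, 44.5 and 3.80 in bleomycin mice 5 to 8. *Scgb1a1*, the secretoglobin of club cells, was at 23.7 to 126 FPKM in saline and 33.0 to 215 in bleomycin mice, highest in bleomycin mouse 8. *Sftpc*, of type II alveolar cells, was highest in bleomycin mouse 5 at 78.5 FPKM. The part of these epithelial transcripts in the results was not tested.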
